A study of Mus musculus with 6 samples.

Results

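The transcripts of 36 genes of DNA replication and S phase were followed in progenitor cells of the embryonic mouse forebrain. The genes were taken by symbol from a count table of 52636 genes, where each of the 36 was found under 1 gene ID. All 36 also passed the filter on low counts that left 16869 genes for testing, and the lowest count of a member in any library was 237. The members cover the loading of the replicative helicase, its activation, synthesis at the fork, nucleotide supply, chromatin behind the fork, and the cyclins, E2F factors and checkpoint proteins that time S phase.

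RNA came from E12.5 forebrain cells taken by a fluorescent sort on Prominin1, a membrane protein of neural progenitors, and labelled as cortical radial glia. The mutant embryos, named SmadNes, were Smad1wt/fl and Smad5wt/fl and carried Nestin:Cre+/0. The control littermates were likewise Smad1wt/fl and Smad5wt/fl but Nestin:Cre0/0, so they had the same floxed alleles and no Cre. Both groups had a mixed CD1, 129/ola and C57BL6 background. Nestin:Cre drives the recombinase in neural progenitors, and both groups keep an intact allele of each Smad gene, which limits the mutant as a model of Smad loss. Each genotype gave 3 libraries, each from a pool of cells named SF3, SF4 or SF5_6 in both genotypes; the labels do not say how many embryos made up a pool. Smad1 and Smad5 carry signals of bone morphogenetic proteins to the nucleus. The question put to the members is whether their transcripts differ with Cre.

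Before a cell copies its DNA, the origin recognition complex with Cdc6 and Cdt1 loads rings of MCM proteins onto DNA in G1. Cdc45 and the GINS complex turn those rings into moving helicases when S phase starts, and polymerases, the sliding clamp and ligase then build the new strands. Many of these genes are known targets of E2F factors, which cyclin E with its kinase frees from the RB proteins. Radial glia cycle throughout cortical neurogenesis, with their nuclei in S phase lying away from the ventricle, while the neurons they form leave the cycle.

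Total counts per library lay between 32997423 and 40744672. Smad5 had 373, 388 and 411 CPM (counts per 1e6 of the TMM-scaled library total) in SmadNes pools SF5_6, SF3 and SF4, against 287, 289.6 and 299.9 CPM in the control pools. Smad1 had 85.7, 86.9 and 92.9 CPM in these SmadNes pools, against 76.1, 72.7 and 77.8 CPM in control pools. Both targeted genes were thus higher, not lower, where the label says SmadNes, in each of the 3 pairs. A whole-gene count takes in exons beyond the floxed ones and is no check of recombination, so each SmadNes library is one labelled as such and directions between genotypes depend on those labels. Smad5 did not pass edgeR's quasi-likelihood test (adjusted p = 0.965) but passed with the pool name as a block (adjusted p = 0.00757). Prom1, which encodes the sort marker, lay between 106 and 132 CPM in the 6 libraries, and none of 15 radial glia markers was at 0 in any. Prom1 varied with the pools, with means of 131, 108 and 126 CPM in SF5_6, SF3 and SF4 (edgeR, 2 degrees of freedom, adjusted p = 0.00342). The libraries of pool SF5_6 stood apart from the others: in a fit with genotype, 4230 of 16869 genes differed between SF5_6 and SF4 and 4618 between SF5_6 and SF3, against 605 between SF4 and SF3 (edgeR, adjusted p below 0.05). Libraries of different genotype but 1 pool name deviated together, with correlations across genes of 0.666, 0.431 and 0.646 for SF5_6, SF3 and SF4.

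Promoter sequences of the members are shown first because the letters that E2F factors are known to bind recur in them. RefSeq windows (GRCm38.p6) reaching from 250 bases before to 50 bases after an annotated start were found for 30 of the 36 members, in 35 windows. The lines below give the 250 bases before the start of 5 members, 5′ to 3′ on the gene's strand. Uhrf1 and Dtl are among the members with the smallest p between pools, Pola1 and Mcm6 hold the most matches in a single window, and Slbp varied between pools but holds none. Capitals mark exact matches, on either strand, to the letters TTCCCGC and its variant TTCGCGC, or to TTGGCGC and its variant TTGCCGC, and overlapping matches run together.
Uhrf1 (chr17:56303087-56303336, plus strand): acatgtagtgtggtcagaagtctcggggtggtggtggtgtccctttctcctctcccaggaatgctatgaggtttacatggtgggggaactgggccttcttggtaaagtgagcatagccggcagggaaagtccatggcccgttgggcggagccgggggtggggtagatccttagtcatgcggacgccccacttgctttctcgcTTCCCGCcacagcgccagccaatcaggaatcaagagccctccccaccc
Dtl (chr1:191575545-191575794, minus strand): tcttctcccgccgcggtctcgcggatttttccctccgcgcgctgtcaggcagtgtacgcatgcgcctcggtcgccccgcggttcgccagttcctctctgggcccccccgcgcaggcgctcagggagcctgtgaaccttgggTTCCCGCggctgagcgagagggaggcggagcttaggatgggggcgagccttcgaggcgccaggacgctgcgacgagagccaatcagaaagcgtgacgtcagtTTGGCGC
Pola1 (chrX:93632156-93632405, minus strand): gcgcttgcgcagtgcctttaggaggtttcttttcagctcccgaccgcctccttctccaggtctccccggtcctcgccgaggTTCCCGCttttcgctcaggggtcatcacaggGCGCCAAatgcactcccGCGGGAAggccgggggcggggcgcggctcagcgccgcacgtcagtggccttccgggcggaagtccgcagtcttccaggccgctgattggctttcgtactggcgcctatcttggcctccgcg
Mcm6 (chr1:128359706-128359955, minus strand): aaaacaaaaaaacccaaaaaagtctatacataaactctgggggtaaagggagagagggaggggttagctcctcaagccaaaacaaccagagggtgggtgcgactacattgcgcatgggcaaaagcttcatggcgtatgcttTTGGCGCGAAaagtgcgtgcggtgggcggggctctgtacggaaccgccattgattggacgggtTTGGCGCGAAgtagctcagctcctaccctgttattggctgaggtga
Slbp (chr5:33652575-33652824, minus strand): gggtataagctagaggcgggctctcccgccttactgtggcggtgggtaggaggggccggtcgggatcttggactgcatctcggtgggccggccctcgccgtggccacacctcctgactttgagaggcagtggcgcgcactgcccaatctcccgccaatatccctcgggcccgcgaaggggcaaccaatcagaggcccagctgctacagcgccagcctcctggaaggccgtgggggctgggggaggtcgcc

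At least 1 E2F-type match stood in the window of 20 of the 30 members, or 66.7%, against 19.0% of the 11434 tested genes in the same table and 10.9% of all its 27025 genes. Separate stretches of such letters numbered 2 or more in 36.7% of the members, against 2.5% of the tested genes. Mcm6 held 5 matches in 3 stretches, the last of them after the start and so not in the line above, and Pola1 held 4, the last likewise after the start. Of the 42 matches in member windows, 26 lay within 100 bases of the start, on either side. The letters CCAAT, bound by the factor NF-Y, were present in 66.7% of the members, against 43.0% of the tested genes, and 14 members held both these and an E2F-type match. The letters GGGCGG, known from Sp1 sites, were present in 76.7% of members against 68.1% of tested genes, and TTTGAA, known from cell cycle genes of later phases, in 13.3% against 14.2%. None of the E2F-type matches overlapped GGGCGG. A match is a run of letters and not a bound site, and in several members, E2f1 and Cdc6 among them, the RefSeq window lies inside the gene as GENCODE M21 draws it.

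Levels were compared between members per kilobase of merged exon (GENCODE M21), averaged over the 6 libraries. The merged length takes in every annotated exon of a gene and can exceed that of the transcripts present, so the order of members is approximate. Rrm1, highest of the members in CPM at 262, stood at 23.8 CPM per kilobase over 11012 bases. Pcna, the sliding clamp, was highest at 76.5 CPM per kilobase. It was followed by Rrm2, the small subunit of ribonucleotide reductase, at 66.4, Mcm7 at 55.9 and Uhrf1 at 45.3 CPM per kilobase. Orc1, the large subunit of the origin recognition complex, was lowest at 2.69 CPM per kilobase, below Gins2 at 3.97 and Mcm10 at 4.71. Within a member the libraries lay close together: the highest library stood above the lowest by a median of 1.34-fold, from 1.13-fold in Fen1 to 1.84-fold in Orc1. Counts of Pcna are uncertain, because Pcna-ps2, a near copy of the gene, held 622 to 920 counts per library and the sharing of reads between the copies was estimated by the authors' software.

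**Figure D1:**
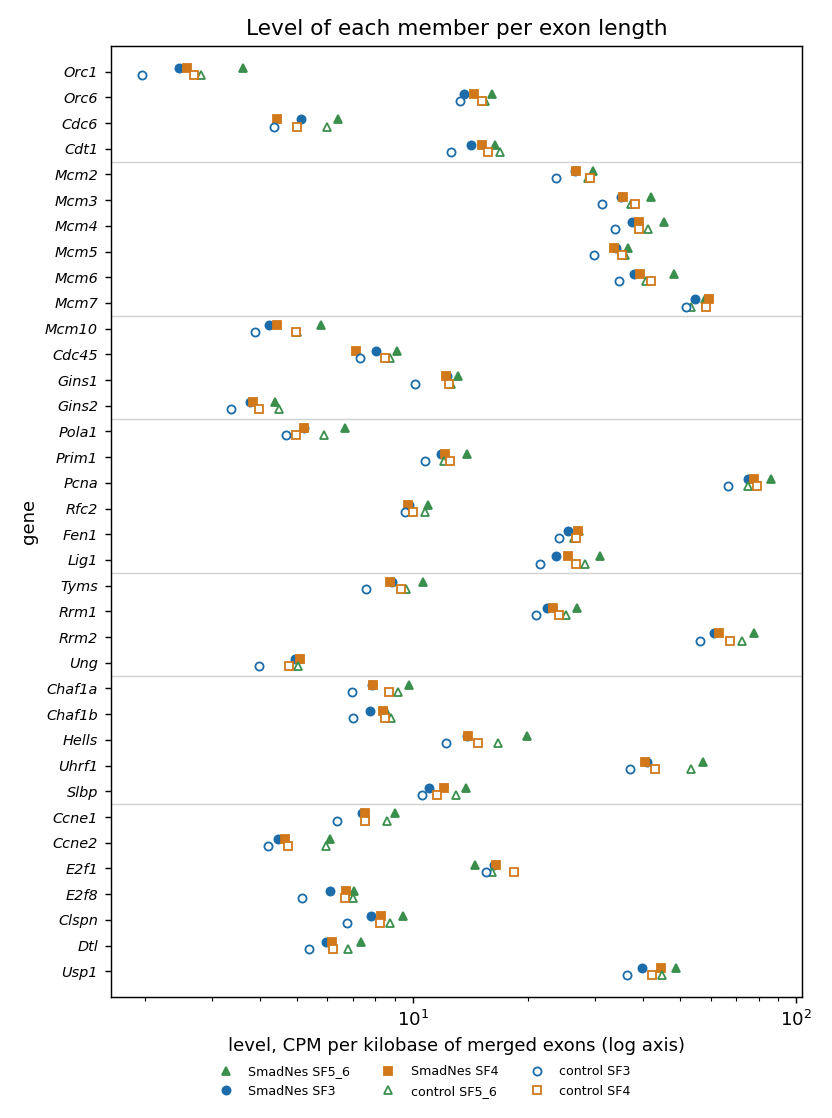
Level of each of the 36 members in CPM per kilobase of merged exons (log axis), 1 point per library, with filled symbols for SmadNes and open symbols for control and 1 shape and colour per pool. Levels spread from 2.69 CPM per kilobase on average for Orc1 to 76.5 for Pcna, while the 6 libraries of a member lie within 1.84-fold of each other.

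None of the 36 members passed the test between SmadNes and control. The edgeR quasi-likelihood test called 0 of 36 at an adjusted p below 0.05, beside 0 of 16869 genes over the whole table (0%), and 0 of 36 even at an unadjusted p below 0.05, beside 177 genes in all (1.05%). Log2 differences, SmadNes minus control, lay between -0.08 for E2f1 and 0.21 for Orc1, with a median of 0.07, beside a median of 0.00 over all genes tested. They were above 0 for 34 of 36 members, E2f1 and Cdc45 being the exceptions, and the 2 groups overlapped in all 36 (of all genes tested, 2.39% lay wholly higher in SmadNes and 2.38% wholly lower). Of the 95% intervals of single members, the lowest bound was -0.39, for Ccne2, and the highest was 0.71, for Orc1. The widest ran from -0.29 to 0.71, for Orc1. The narrowest ran from -0.10 to 0.19, for Fen1, the flap endonuclease that trims Okazaki fragments. With the pool name as a block the intervals were narrower: their half-width had a median of 0.13 on the log2 scale in place of 0.28, and Orc1 ran from -0.03 to 0.45, Uhrf1 from -0.05 to 0.16 and Fen1 from -0.05 to 0.14. In bulk libraries a change in the number of cells in S phase and a change in RNA per cell cannot be told apart.

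Without the SmadNes SF5_6 library or without the control SF3 library, in a fit with no block and so with unequal pools, 13 of 36 members were above 0 and the median was -0.02. With both libraries of a pair left out and the block kept, the median stayed above 0, at 0.05 without SF5_6, 0.03 without SF3 and 0.13 without SF4, with 31, 25 and 35 of 36 members above 0. Within pairs the median was 0.10 in SF5_6, 0.15 in SF3 and -0.05 in SF4, and the members above 0 numbered 32, 36 and 8 in these pairs. Higher in SmadNes in all 3 pairs were 8 members, or 22.2%, beside 13.8% of all genes tested: Mcm7, Pola1, Fen1, Ung, Slbp, E2f8, Clspn and Usp1. None was lower in all 3, beside 14.3% of all genes tested. With the pool name as a block the test called 0 of 36 members (0.0237% of all genes), and 4 lay below an unadjusted p of 0.05 (6.23% of all genes), namely Usp1, Pola1, Pcna and Clspn, with Usp1 lowest at 0.0111 and an edgeR adjusted p of 0.612. That count depended on the pairs: without the SF4 pair, 16 of 36 members lay below an unadjusted p of 0.05 (7.57% of all genes) and 0 passed at the adjusted threshold, while without SF5_6 it was 1 (6.73%) and without SF3 it was 2 (5.95%). DESeq2 and limma-voom, each with and without the block, called 0 of 36 as well, with 0 to 3 members at an unadjusted p below 0.05.

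Markers of other cell types also differed within pairs, and none was called between genotypes in edgeR. Mesenchymal and pericyte markers had pair medians of 0.27 in SF5_6, 0.45 in SF3 and -0.45 in SF4 on the log2 scale, with 11, 11 and 0 of 11 genes above 0. The medians of the members had the same signs. So did those of 30 G2 and mitosis genes (0.06, 0.18 and -0.06) and of 62 other replication genes (0.10, 0.12 and -0.03). Microglia and endothelial markers had these signs too, and the remaining gene lists did not. Mesenchymal and pericyte markers summed to between 298 and 1354 CPM in SmadNes and between 471 and 1081 CPM in control. Ventral forebrain markers were lower in SmadNes in all 3 pairs for 10 of 13 genes (14.3% of all genes tested), with a median log2 genotype difference of -0.60, and summed to between 138 and 289 CPM in SmadNes and between 152 and 379 CPM in control. Of 18 postmitotic neuron markers 8 were lower in SmadNes in all 3 pairs, with a median of -0.08, and the 10 erythroid markers tested had a median of -0.53 with 0 above 0. The part of these cell types in the genotype differences of the members was not tested.

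**Figure D2:**
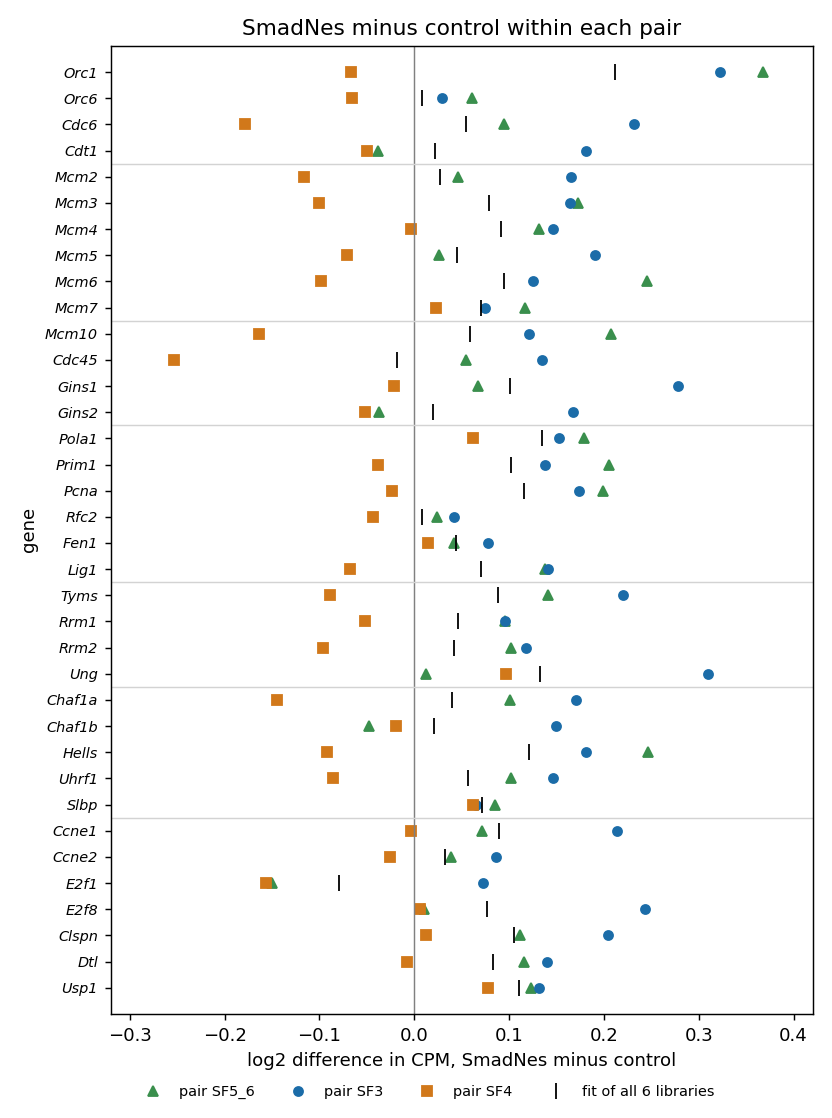
Log2 difference in CPM, SmadNes minus control, within each pair for each member (symbols by pool) and in the fit of all 6 libraries (black ticks). Most SF4 pair values lie below 0 and all SF3 pair values above it, from 0.03 to 0.32, and no member passed edgeR's test.

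Between pools the members did differ, and nearly all in 1 direction. With genotype in the fit, 21 of 36 varied over the 3 pools (edgeR, 2 degrees of freedom, adjusted p below 0.05), beside 28.8% of all genes tested. Set against the mean of SF3 and SF4, 24 members rose in SF5_6 and 0 fell, beside 16.8% and 15.6% of all genes in these directions. The differences in this contrast were above 0 for 34 of 36 members, with a median log2 difference of 0.21 beside 0.01 over all genes. Against SF3 alone 28 rose in SF5_6 (13.5% of all genes), with a median of 0.30. Against SF4 alone 8 rose (13.1%), with a median of 0.14. Below, a gene that rose in SF5_6 is one called against the mean of SF3 and SF4, unless another contrast is named. Between SF4 and SF3 no member passed edgeR's test (0 of 36, beside 0.581% of genes higher and 3.01% lower). At an unadjusted p below 0.05 lay 18 members, beside 2661 of 16869 genes. SF4 was the higher for 35 of 36 members (50.4% of all genes), with a median of 0.14. Each pool name has 2 libraries, 1 per genotype. These p-values rest on the spread left after a shared genotype difference is taken out, and not on repeated pools of 1 name. What the pools differ in besides their name is not given in the labels.

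The control SF3 library was the lowest of the 6 for 34 of 36 members, and the SmadNes SF5_6 library was the highest for 30. The members summed to 3669, 3059 and 3164 CPM in SmadNes pools SF5_6, SF3 and SF4, against 3392, 2779 and 3272 CPM in the control pools. By genotype that was 3297 ± 326 CPM in SmadNes and 3148 ± 325 CPM in control (SD, n = 3 each). These SD take in the differences between pools, which the 2 libraries of a pair share. Within pairs the sum was higher in SmadNes in SF5_6 and SF3 and lower in SF4. By pool the SF5_6 libraries exceeded those of SF3 by 1.21-fold and those of SF4 by 1.10-fold. Without control SF3, which leaves 1 library in that pool, fewer members varied over the 3 pools, and so did fewer of all genes. Fewer members were also called higher in SF5_6 in that fit, and without SmadNes SF5_6 or SmadNes SF4. In each of these fits 34 of 36 members stayed above 0 in the SF5_6 contrast.

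**Figure D3:**
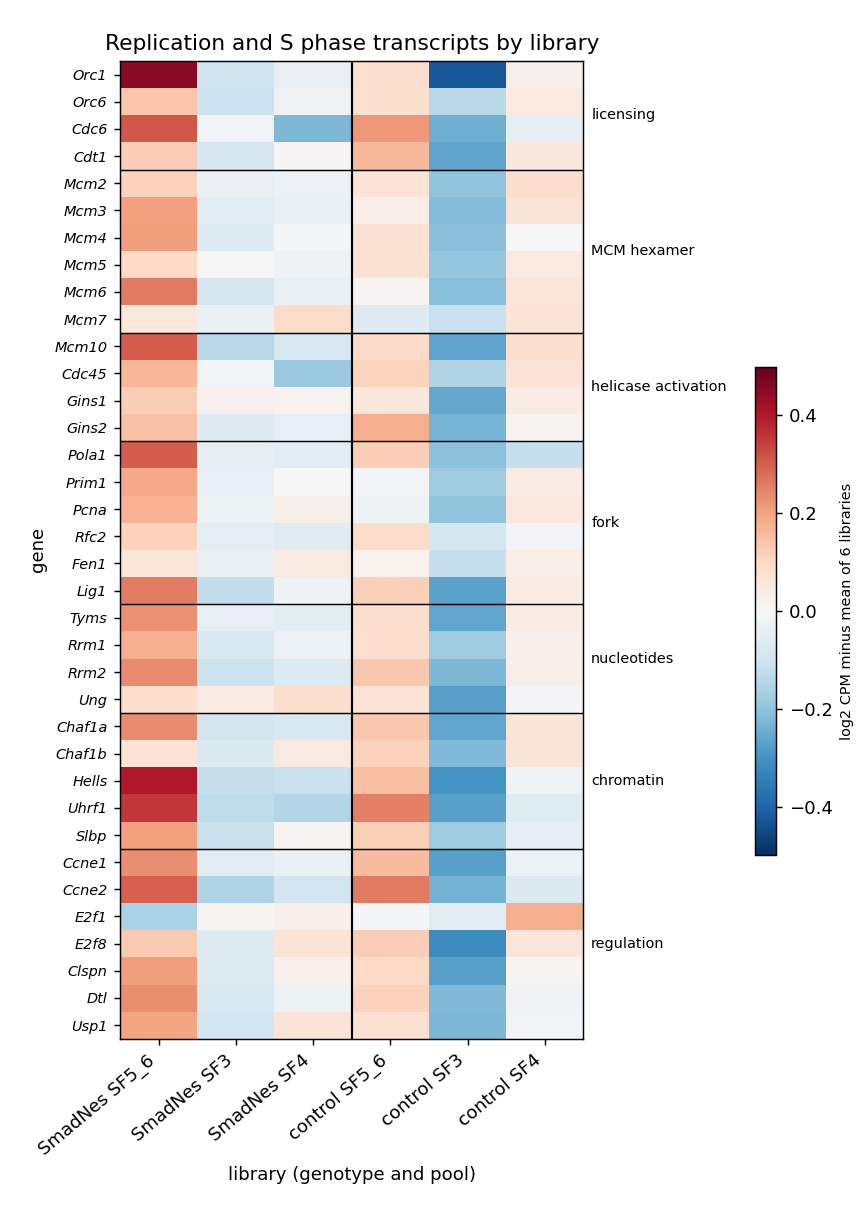
Log2 CPM of each member minus its mean over the 6 libraries (colour scale, in log2 units), with SmadNes libraries left of control libraries and members grouped by role. The SmadNes SF5_6 column is the highest for 30 members and the control SF3 column the lowest for 34.

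All licensing genes were called higher in SF5_6 than in the mean of SF3 and SF4 (4 of 4: Orc1, Orc6, Cdc6 and Cdt1). Against SF4 alone Orc1, Orc6 and Cdt1 did not pass (edgeR adjusted p = 0.162, 0.318 and 0.277). For Orc6 and Cdt1 SF4 lay above SF3 by 0.14 and 0.20 on the log2 scale, and SF5_6 above SF4 by 0.09 and 0.11. Orc1 had 12.6, 8.57 and 8.95 CPM in SmadNes pools SF5_6, SF3 and SF4, against 9.75, 6.86 and 9.38 CPM in the control pools. Both SF5_6 libraries lay above the other 4, the control one only just above control SF4. Such a separation, given here and for genes below, was not counted over all genes. Many of those genes are shown because their pool p was small, which favours it. The log2 difference of SF5_6 from the mean of SF3 and SF4 was 0.40 (SE 0.111, edgeR adjusted p = 0.0233). Cdc6, the loader of the MCM ring, rose by 0.39 (SE 0.0813, edgeR adjusted p = 0.00687), and it was among the 8 members that also passed against SF4 alone. Orc6 and Cdt1, the MCM chaperone that geminin holds back, rose by 0.16 and 0.21 on the log2 scale. Between genotypes Orc1 averaged 10.0 ± 2.21 CPM in SmadNes and 8.66 ± 1.57 CPM in control (SD, n = 3 each), a log2 difference of 0.21 with a 95% interval from -0.29 to 0.71.

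Of the MCM hexamer, the core of the helicase, Mcm3, Mcm4 and Mcm6 rose in SF5_6 and Mcm2, Mcm5 and Mcm7 did not pass. Mcm4 had 162, 134 and 140.0 CPM in SmadNes pools SF5_6, SF3 and SF4, against 148, 121 and 140.2 CPM in the control pools. Its log2 pool difference was 0.21 (SE 0.0431, edgeR adjusted p = 0.00597). Mcm2 had 206, 185 and 186 CPM in these SmadNes pools, against 199, 165 and 202 CPM in control pools, and Mcm5 had 146, 136 and 134 CPM in SmadNes pools, against 143, 119 and 140.5 CPM in control pools. In Mcm2 the control SF4 library reached the level of the SF5_6 libraries. The log2 pool differences of Mcm2 and Mcm5 were both 0.13, with edgeR adjusted p of 0.0921 and 0.0945. Mcm7 stood at -0.01 (SE 0.0373, edgeR adjusted p = 0.855) while Mcm6 stood at 0.21 (SE 0.0617, edgeR adjusted p = 0.0321). Both encode subunits of the same ring, and the difference between them was not tested.

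Of the genes that activate the helicase, Mcm10 and the GINS subunit Gins2 rose in SF5_6, by 0.30 and 0.24 on the log2 scale. Cdc45 stood at 0.20 (edgeR adjusted p = 0.0859) and Gins1 at 0.13 (edgeR adjusted p = 0.242), neither past the threshold. Cdc45 was lowest in SmadNes SF4 and not, like 34 other members, in control SF3.

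At the fork, the polymerase subunit Pola1, the clamp loader subunit Rfc2 and the ligase Lig1 rose in SF5_6, and Prim1, Pcna and Fen1 did not pass. Pola1, the catalytic subunit of polymerase alpha, had 58.6, 45.9 and 45.8 CPM in SmadNes pools SF5_6, SF3 and SF4, against 51.7, 41.3 and 43.9 CPM in the control pools. The 2 SF5_6 libraries were the highest, and SF3 and SF4 lay together. Its log2 pool difference was 0.32 (SE 0.0478, edgeR adjusted p = 0.00133). Lig1, which joins Okazaki fragments, had 132, 101 and 109 CPM in SmadNes pools, against 119.9, 91.9 and 114 CPM in control pools, with a log2 pool difference of 0.28 (SE 0.0507, edgeR adjusted p = 0.00341). Rfc2 rose by 0.15.

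Pcna had 206, 179.8 and 187 CPM in SmadNes pools SF5_6, SF3 and SF4, against 179.8, 159 and 189.9 CPM in the control pools. Prim1, the small primase subunit, had 53.8, 45.8 and 47.2 CPM in SmadNes pools, against 46.6, 41.7 and 48.4 CPM in control pools. In both genes the control SF5_6 library lay below control SF4. These 2 genes and Ung had the smallest genotype p of the 36, and none was near the threshold. The genotype difference of Pcna was 0.12 on the log2 scale with a 95% interval from -0.09 to 0.32, and that of Prim1 was 0.10, from -0.11 to 0.31. Their log2 pool differences were 0.11 (edgeR adjusted p = 0.131) and 0.13 (edgeR adjusted p = 0.117).

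The genes of nucleotide supply rose in SF5_6: Rrm1 and Rrm2, the subunits of ribonucleotide reductase, and Tyms, which makes thymidylate. Rrm1 had 296, 247 and 256 CPM in SmadNes pools SF5_6, SF3 and SF4, against 277, 231 and 266 CPM in the control pools, a log2 pool difference of 0.20 (SE 0.0424, edgeR adjusted p = 0.00821). Rrm2 had 216, 169.6 and 175 CPM in SmadNes pools, against 201, 156 and 187 CPM in control pools, a log2 pool difference of 0.28 (SE 0.0491, edgeR adjusted p = 0.00299). Tyms had 64.7, 53.7 and 53.3 CPM in SmadNes pools, against 58.7, 46.1 and 56.7 CPM in control pools, a log2 pool difference of 0.23 (SE 0.063, edgeR adjusted p = 0.0215). In all 3 genes both SF5_6 libraries lay above the other 4. Ung, which removes uracil from DNA, had 27.7, 26.9 and 27.8 CPM in SmadNes pools, against 27.5, 21.7 and 26.0 CPM in control pools. The control SF3 library alone was low. In the fit with no block Ung had the smallest genotype p of the members (0.217 unadjusted in edgeR), with a log2 difference of 0.13. Its log2 pool difference was 0.11 (edgeR adjusted p = 0.273).

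All 5 genes of chromatin behind the fork had pool differences above 0, that of Uhrf1 being the largest of the 36 members. Uhrf1, which reads hemimethylated DNA and recruits the maintenance methyltransferase, had 243, 175 and 172 CPM in SmadNes pools SF5_6, SF3 and SF4, against 227, 158 and 182 CPM in the control pools. Its log2 pool difference was 0.45 (SE 0.0495, edgeR adjusted p = 0.000234), a 1.37-fold rise, and it rose against SF4 alone by 0.41 (edgeR adjusted p = 0.0012). Hells, a chromatin remodeller also needed for DNA methylation, had 143, 100.0 and 100.4 CPM in SmadNes pools, against 121, 88.2 and 107 CPM in control pools, with a log2 pool difference of 0.41 (SE 0.0636, edgeR adjusted p = 0.00151). Both SF5_6 libraries of Uhrf1 and of Hells exceeded all 4 others. Slbp, which binds the stem-loop of histone mRNAs, had 83.8, 67.3 and 73.4 CPM in SmadNes pools, against 78.9, 64.3 and 70.3 CPM in control pools, with a log2 pool difference of 0.24 (SE 0.0395, edgeR adjusted p = 0.00199). Of the histone chaperone subunits, Chaf1a rose by 0.27 and Chaf1b stood at 0.14 (edgeR adjusted p = 0.107). Between genotypes Uhrf1 averaged 197 ± 40.6 CPM in SmadNes and 189 ± 35.1 CPM in control (SD, n = 3 each, pool differences included). Within pairs its log2 difference, SmadNes minus control, was 0.10 in SF5_6, 0.15 in SF3 and -0.09 in SF4.

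Among the genes that time and guard S phase, Ccne1, Ccne2, Clspn, Dtl and Usp1 rose in SF5_6. Ccne2 had 21.3, 15.6 and 16.2 CPM in SmadNes pools SF5_6, SF3 and SF4, against 20.7, 14.7 and 16.5 CPM in the control pools, a log2 pool difference of 0.42 (SE 0.0662, edgeR adjusted p = 0.00175). The other cyclin E gene, Ccne1, had 24.0, 19.6 and 20.0 CPM in SmadNes pools, against 22.8, 16.9 and 20.0 CPM in control pools, a log2 pool difference of 0.29 (SE 0.0685, edgeR adjusted p = 0.0119). For both cyclins the SF5_6 libraries of the 2 genotypes lay together at the top. Clspn, the adaptor that activates the checkpoint kinase Chk1, had 67.9, 55.9 and 59.6 CPM in SmadNes pools, against 62.8, 48.5 and 59.1 CPM in control pools, a log2 pool difference of 0.23 (SE 0.0501, edgeR adjusted p = 0.00827). Dtl, the ubiquitin ligase receptor that removes Cdt1 in S phase, had 101, 81.3 and 84.4 CPM in SmadNes pools, against 93.1, 73.8 and 84.9 CPM in control pools, a log2 pool difference of 0.26 (SE 0.0446, edgeR adjusted p = 0.00269). Usp1, which takes ubiquitin off PCNA, had 182, 149 and 166 CPM in SmadNes pools, against 167, 136 and 157 CPM in control pools, a log2 pool difference of 0.20 (SE 0.0363, edgeR adjusted p = 0.00308). For these 3 genes both SF5_6 libraries again lay above the other 4, and Clspn and Usp1 were higher in SmadNes in 3 of 3 pairs.

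E2f1, an activating E2F, was the member with the lowest pool value. It had 45.8, 51.6 and 52.0 CPM in SmadNes pools SF5_6, SF3 and SF4, against 50.8, 49.1 and 58.0 CPM in the control pools. It was lowest in SmadNes SF5_6, the library where 30 other members were highest. Its log2 pool difference was -0.12 (SE 0.0586, edgeR adjusted p = 0.14), and its genotype difference was -0.08 with a 95% interval from -0.29 to 0.13. E2f8, a repressor of the family, stood at 0.19 in the pool contrast (edgeR adjusted p = 0.0524) and varied over the 3 pools (edgeR adjusted p = 0.027).

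**Figure D4:**
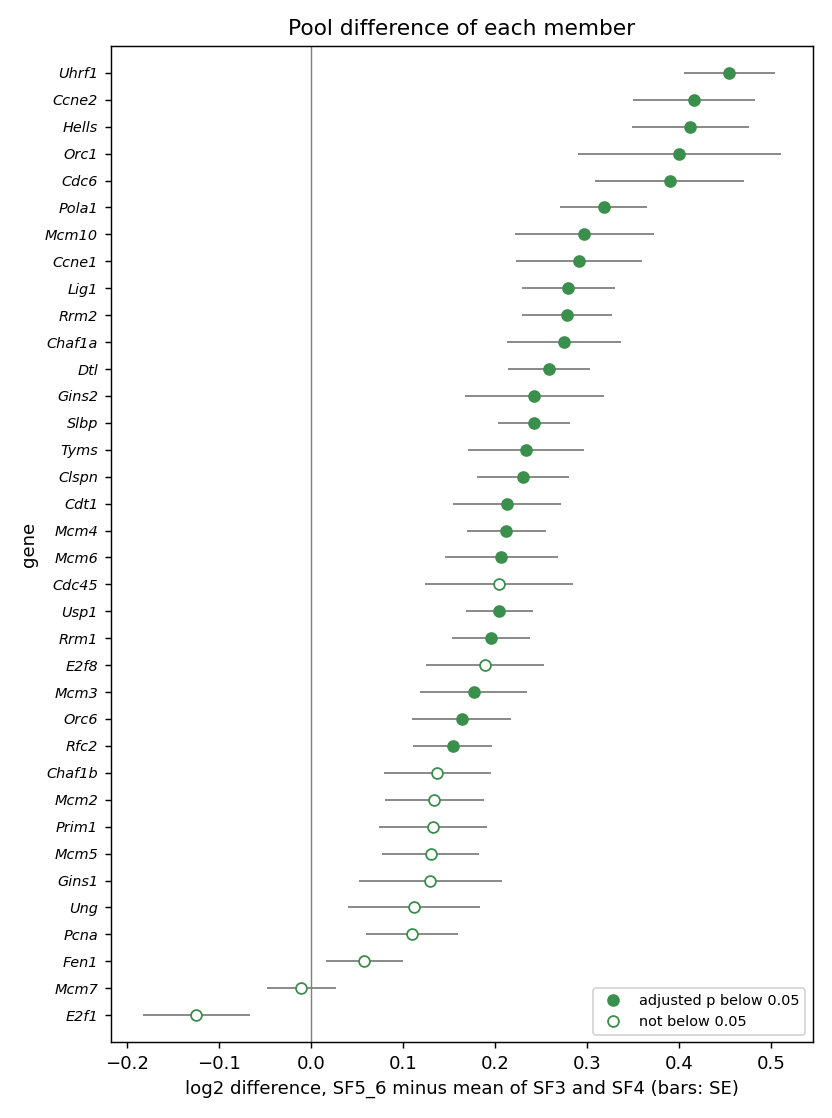
Log2 difference of each member, SF5_6 minus the mean of SF3 and SF4, with its SE, ordered by size; filled points have an edgeR adjusted p below 0.05. The values run from -0.12 for E2f1 to 0.45 for Uhrf1, and 24 of 36 are called, all above 0.

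Members were also split by their promoter letters. The median log2 pool difference was 0.22 over the 20 with a match and 0.18 over the 10 without, and no test was made of the difference. Some windows in both sets lie partly or wholly inside the gene as GENCODE M21 draws it. For E2f1, without a match and lowest in the pool contrast, all 250 bases before the RefSeq start do. The split is thus one of these windows and not of all promoters of a member. Slbp rose without a match in its window.

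A list of 62 other genes of DNA replication and S phase, of which all were tested, was counted in the same way. Between genotypes 0 of 62 were called in edgeR (0 also at an unadjusted p below 0.05) and 55 were above 0, with a median log2 difference of 0.07. In SF5_6 37 of 62 rose and 0 fell, with a median of 0.20 (of all genes tested, 16.8% rose and 15.6% fell). In the fit with no block the smallest genotype p of the list belonged to Rpa3, a subunit of the single-strand binding protein. Rpa3 had 18.7, 18.8 and 19.6 CPM in SmadNes pools SF5_6, SF3 and SF4, against 17.4, 17.5 and 17.6 CPM in the control pools. It was 1 gene whose groups did not overlap, beside 2.39% of all genes with higher SmadNes values, and it did not pass edgeR's test. Pole3, Blm and Pold1 followed, with log2 differences of 0.12, 0.16 and -0.10. The smallest pool p belonged to Dbf4, the activator of the kinase that fires origins, with 84.8, 60.0 and 68.6 CPM in SmadNes pools SF5_6, SF3 and SF4, against 75.0, 57.0 and 67.4 CPM in the control pools, a log2 pool difference of 0.34 (SE 0.0458, edgeR adjusted p = 0.00075). E2f7, a repressor like E2f8, followed at 0.51, with Wdr76 at 0.34, Exo1 at 0.33, Atad2 at 0.29 and Ccna2, the S phase cyclin A, at 0.20.

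Other gene lists moved with the pools as well, beside 16.8% of all genes tested that rose in SF5_6 and 15.6% that fell. Of 30 genes of G2 and mitosis 23 rose in SF5_6 and 0 fell, with a median log2 difference of 0.21, the same to 2 decimals as that of the members. Of 18 E2F and RB family genes, a list that holds the members E2f1 and E2f8, 6 rose and 2 fell. Of 8 inhibitors of cyclin-dependent kinases and genes of cell cycle exit 6 fell and 1 rose, with a median of -0.28; Btg2 and Gadd45g of this list are also counted among the intermediate progenitor markers. The whole list of 15 radial glia markers had 8 genes higher and 2 lower (13.3%, near the share of all genes). Prom1, the sort marker, was among those higher, by 0.16 on the log2 scale (edgeR adjusted p = 0.0102). Its SF4 libraries lay above SF3 by 0.22 (edgeR adjusted p = 0.0265). All 10 markers of intermediate progenitors, the dividing daughters of radial glia, fell in SF5_6 (median -0.42), and of 18 markers of postmitotic neurons 11 fell and 4 rose (median -0.30). Neuron markers summed to between 5633 and 7408 CPM in SmadNes and between 5577 and 7934 CPM in control, with the SF5_6 library lowest and the SF3 library highest in each genotype. Intermediate progenitor markers summed to between 1446 and 2239 CPM in SmadNes and between 1529.8 and 2138 CPM in control. The part of these cell types in the rise of the replication genes was not tested.

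Markers of tissue outside the cortex or of other lineages also differed between pools (of all genes tested, 16.8% rose in SF5_6 and 15.6% fell). Of 13 ventral forebrain markers 10 rose in SF5_6, summing to 289 and 379 CPM in the SmadNes and control SF5_6 libraries and to between 138 and 202 CPM in the other 4. Of 12 erythroid markers 10 were tested, and 8 rose and 1 fell. Their sums were 667 and 1127 CPM in the SmadNes and control SF5_6 libraries and between 117 and 379 CPM in the others. Gata1 was at 0 in 3 libraries. Mesenchymal and pericyte markers (9 of 11 higher) summed to 1354 and 1081 CPM in SF5_6 and to between 298 and 922 CPM in the others. Markers of microglia (9 of 11 higher) summed to 78.9 and 73.0 CPM in SF5_6, between 97.7 and 103.6 CPM in SF3 and between 16.7 and 18.4 CPM in SF4. Endothelial markers, of which 7 of 10 were tested and 3 rose, summed to between 18.2 and 24.6 CPM in all libraries, with Erg at 0 in 1 library. Their part in the pool differences of the members was not tested.

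**Figure D5:**
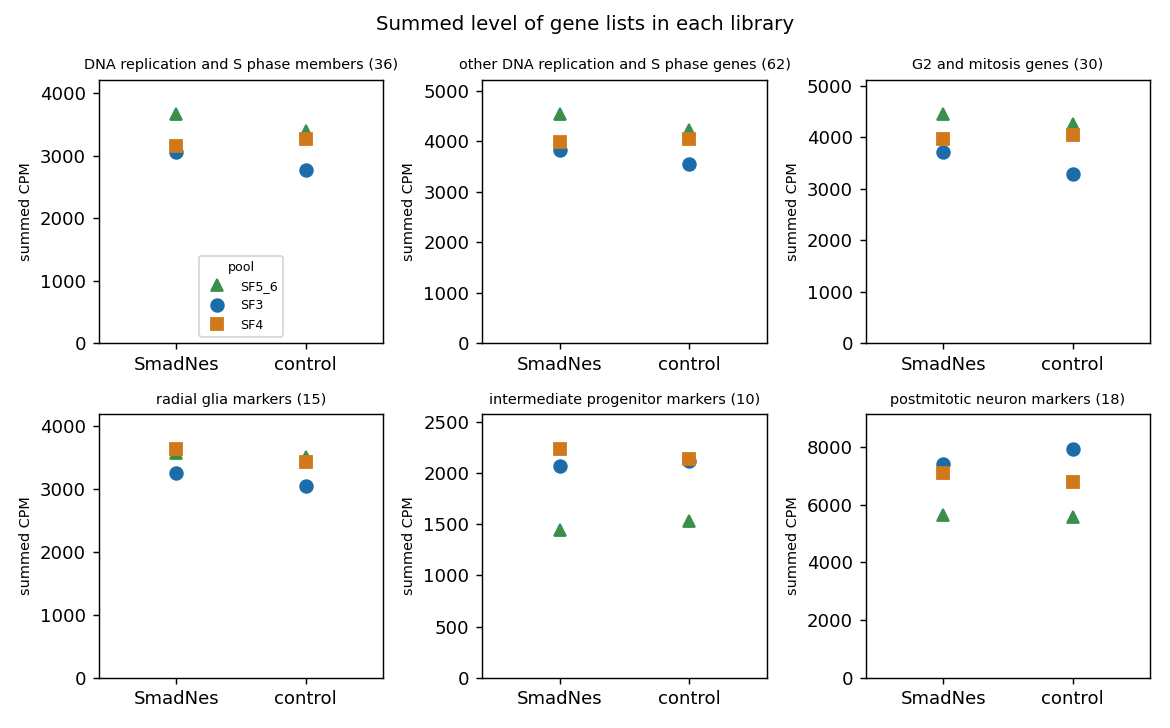
Summed CPM of the members and of 5 gene lists in each library, SmadNes left of control, with 1 symbol per pool and axes from 0. Replication, G2 and mitosis lists are highest in SF5_6 in both genotypes, and markers of intermediate progenitors and neurons are lowest there.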

How the data were processed

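Per the labels' protocols, the authors made stranded mRNA libraries, used STAR 2.5.3a for mapping paired-end reads (GRCm38) and RSEM 1.3.0 for quantification against GENCODE M15. DESeq2 1.18 also stands in the submitters' processing notes. The authors deposited expected counts per gene, already whole numbers; the rounding step is not described in the labels. All 6 value columns were used, and no other column of samples exists in the table. A count of 0 allowed at most 0.0909 CPM (3 counts, counting error only).

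After filterByExpr and TMM scaling, edgeR 4.0.16 (R 4.3.3) gave quasi-likelihood F tests, with Benjamini-Hochberg adjustment over 16869 genes and a threshold of 0.05, once for genotype and once for pool with genotype as a second term. DESeq2 1.42.0, limma-voom (limma 3.58.1), other scaling and filters, the replicate block and left-out libraries were alternatives. The libraries were no copies of each other (chi-square per degree of freedom 10.6 to 43.9). Same-named libraries deviated together and the labels speak of pairs, so the names were taken to pair the samples. Libraries of different names correlated at -0.0928 or lower. Values were centred within genotype, which makes these negative on balance, so they add no support for the pairing. The biological coefficient of variation was 0.198 without and 0.0556 with the block. Intervals are 95% intervals of the fit and levels in the text are CPM with TMM scaling. Exon lengths came from GENCODE M21 and promoter windows from RefSeq (GRCm38.p6). The scripts were tested on simulated counts. The members and gene lists were chosen with earlier results of these data known. Values in all libraries are given for the 3 members with the smallest genotype p (no block) and the 12 with the smallest pool p. They are also given for 8 members by name, some of which fall under these ranks (Pcna, Mcm2, Mcm5, Ccne1, Ccne2, E2f1, Tyms and Rrm2). The members of lowest and highest mean CPM are given as well.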

Additional observations from a re-analysis of the deposited data

How the results depend on the processing

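Over all genes, the count differing between SmadNes and control was 0 in the main edgeR fit, 4 with the replicate block, 7 in DESeq2 (14 with the block) and 1 in limma-voom (8 with the block), and between 0 and 149 when libraries or pairs were left out, the 149 without the SF5_6 pair with the block. No member was called in any of these fits. Genes differing between pools numbered 4864 in the main fit, 3161 in DESeq2 and 605 between SF4 and SF3 alone; members numbered 21, with 8 for SF5_6 against SF4 alone and 0 for SF4 against SF3 alone, and 13 (without control SF3) to 25 over left-out libraries. Members higher in SF5_6 than in the mean of SF3 and SF4 numbered 24, and 14 (without SmadNes SF5_6) to 29 over left-out libraries. Under the other tests, scalings and filters no genotype difference of a member changed sign. Leaving out libraries did change the sign of uncalled genotype differences, with these lowest and highest log2 values: Ccne1 -0.0151 and 0.191, Ccne2 -0.122 and 0.176, Cdc45 -0.111 and 0.093, Cdc6 -0.102 and 0.177, Cdt1 -0.092 and 0.107, Chaf1a -0.0752 and 0.134, Chaf1b -0.0746 and 0.0796, Dtl -0.0184 and 0.157, E2f8 -0.0458 and 0.153, Fen1 -0.00108 and 0.0733, Gins2 -0.0826 and 0.115, Hells -0.0713 and 0.224, Lig1 -0.049 and 0.147, Mcm10 -0.0919 and 0.164, Mcm2 -0.0598 and 0.104, Mcm3 -0.0094 and 0.167, Mcm5 -0.0354 and 0.106, Mcm6 -0.0214 and 0.184, Orc6 -0.0625 and 0.0633, Rfc2 -0.0499 and 0.0502, Rrm1 -0.0356 and 0.0973, Rrm2 -0.0752 and 0.115, Slbp -0.0176 and 0.146, Tyms -0.0109 and 0.178, Uhrf1 -0.126 and 0.203. The SF5_6 contrast of Mcm7 ran from -0.045 to 0.024 in the same way. Causes were not tested. With 3 pools per genotype, the half-width of a member's 95% interval for the genotype difference was 0.14 to 0.50 on the log2 scale without the replicate block and 0.08 to 0.24 with it.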
